A study of Danio rerio with 24 samples.

Results

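The crystallins of zebrafish (*Danio rerio*) were followed in RNA sequencing counts from 24 libraries of whole animals of the line Tg(fli1:egfp). Members were all identifiers of the count files whose symbol begins with cry followed by a, b or g in either case, which takes in alpha, beta and gamma crystallins and leaves out the cryptochromes. The rule found 55 genes among 35117 identifiers: 3 alpha, 7 acidic beta, 6 basic beta, 30 gamma M, 2 gamma N and 4 gamma S crystallins, and 3 other genes with beta-gamma motifs (*crybgx*, *crybg1a* and *crybg1b*). A further 5 crystallin symbols of the gene name table have no row in the count files and were not analysed here. Animals were raised in tetrahydrocannabinol (THC), in cannabidiol (CBD) or in the solvent DMSO, and were taken at 96 hours post-fertilisation (hpf) as larvae or at 10 hpf as embryos, with 4 libraries in each of the 6 groups. Every group, the controls included, carries the same transgene, in which the vascular endothelial gene fli1 drives a green fluorescent protein. The sources used here give neither the doses nor how many animals were pooled. The 4 libraries of a group are called biological replicates, with no word on separate clutches, so that p-values speak of the spread between these samples only.

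Crystallins are the soluble proteins that fill the fibre cells of the lens and give it transparency and refractive power. Alpha crystallins belong to the small heat shock proteins and act as chaperones that keep other lens proteins in solution. Beta and gamma crystallins share a fold and pack densely, and fish carry a large family of methionine-rich gamma M crystallins suited to the hard lens of an aquatic eye. In zebrafish the lens arises from surface ectoderm beside the eye cup after gastrulation, so an embryo at the close of gastrulation has no lens, while a larva of 96 hpf has a working one. *crybg1a* and *crybg1b* match the rule by name only: the mammalian gene of that name encodes a large protein with beta-gamma motifs that is not a structural protein of the lens.

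Library totals were 14879976 to 29641377 counts in 23 libraries, where the detection floor of 3 counts amounts to 0.101 to 0.202 CPM (the count scaled by library size). DMSO library 4 of 10 hpf held 125926 counts, 153.3 times fewer than the median 10 hpf library without it, and its values rest on single reads. The common coefficient of biological variation was 0.476 at 10 hpf and 0.195 at 96 hpf. Floors cover counting error only. CPM is not divided by transcript length, and the tests compare levels within a gene only. Where counts or shares of different genes or classes are given side by side, they are amounts of reads, which also depend on transcript length. A value per kilobase of gene span does not correct for transcript length. Whole animals were sequenced, so that fewer lens cells and less RNA per lens cell cannot be told apart.

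In larvae of 96 hpf the crystallins together took more than 1% of all counts. Their summed share was 1.495%, 1.353%, 1.153% and 1.513% in THC libraries 1 to 4. It was 1.696%, 1.491%, 1.572% and 1.552% in CBD libraries and 1.518%, 1.775%, 1.462% and 1.607% in DMSO libraries. Group means were 1.379% ± 0.167 with THC, 1.578% ± 0.0861 with CBD and 1.590% ± 0.137 with DMSO (SD, n = 4 each). The lowest library was THC library 3 and the highest DMSO library 2, and the ranges of all 3 groups overlapped. The make-up of this sum was nearly the same in each larval library. Gamma M crystallins held 43.2% to 45.5% of the crystallin counts over the 12 larval libraries, acidic beta crystallins 25.3% to 27.2%, basic beta crystallins 21.0% to 23.4% and gamma N crystallins 5.0% to 6.30%. Alpha crystallins held 0.224% to 0.431%.

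**Figure D1:**
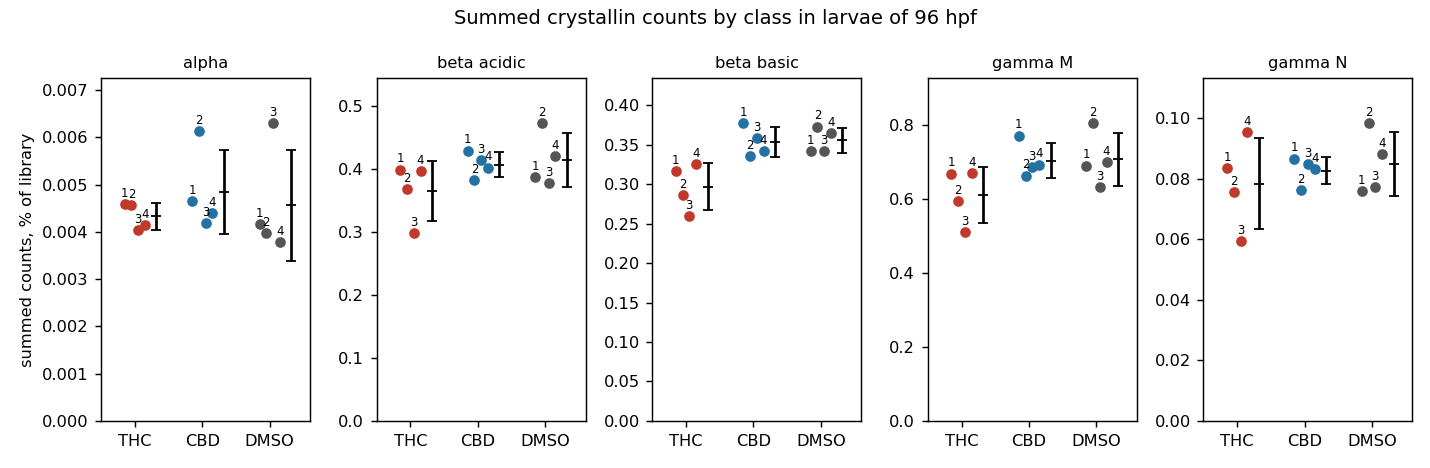
Summed counts of 5 crystallin classes as a percentage of the library's total count (vertical axes, each from 0), in the larval libraries of 96 hpf raised in THC, CBD or DMSO. Points are libraries numbered by replicate, and bars show the mean ± SD of 4 libraries. THC library 3 is lowest in 4 of the 5 classes. By this raw share the 4 THC libraries lie below the 4 CBD and the 4 DMSO libraries for the basic beta class alone. As scaled CPM they overlap both.

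Within the alpha class nearly all counts came from *CRYAA* (ENSDARG00000053502), the lens-restricted alpha A chain. Its level was 47.8, 46.7, 35.4 and 38.5 CPM in THC larvae, 48.1, 55.5, 37.8 and 41.6 CPM in CBD larvae and 42.4, 42.8, 56.5 and 37.0 CPM in DMSO larvae, with overlapping groups. The symbol *CRYAB*, the alpha B chain that mammals express in lens, heart and muscle, belongs to 2 zebrafish genes. ENSDARG00000101380 had 20 to 53 counts in each larval library. ENSDARG00000042621 had 1 count in all 12 larval libraries together.

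Most gamma M counts of the larvae came from 1 block of genes. Outside this block, *crygmxl2* had 7485 to 18709 counts and *crygmx* 3347 to 7079 in each larval library. In the RefSeq annotation of the assembly GRCz12tu, which is not the build of the count files and was used only for the order of genes and the length of their spans, 31 crystallin genes follow each other without another gene between them, and 26 of them have a row in the count files. The 18 genes of this run that are called *crygm2d* held 38.1% to 40.5% of the crystallin counts. Each of the 18 had between 849 and 25073 counts in every larval library, or 105.4 to 818.7 CPM per kilobase of gene span on average. The other 8 genes of the same run (*crygmxl1*, *crygm2a*, *crygm2e*, *crygm2f*, *crygm3*, *crygm5*, *crygs3* and *crygs4*) had 0 to 423 counts and 0.0563 to 7.97 CPM per kilobase of gene span. The groups of 18 and 8 neighbours did not overlap on this scale, nor in their counts. The *crygm2d* genes are close copies of each other, so reads that fit several of them may have been dropped or split in counting. Either would make the level of a single copy uncertain. Dropped reads would also make the sum of the 18 and its share of the crystallin counts too low, which was not tested.

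The 4 gamma S genes were nearly silent, although gamma S is a main gamma crystallin of the mammalian lens. Together they had between 3 and 16 counts in any larval library. Of the 55 members 4 had at most 3 counts in every larval library (1 *CRYAB*, *crygm1*, *crygm2a* and *crygm6*), and 30 had at least 800 counts in every one. *CRYBA1* (ENSDARG00000041141), the acidic A1 chain, had 39 to 108 counts and its neighbour *crybb1l3* had 67 to 141, while the second A1 gene, *cryba1b* (ENSDARG00000053875), had 13811 to 32210.

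The 29 beta, gamma M and gamma N crystallins with at least 800 counts in every larval library had 0 to 157 counts in any deep library of 10 hpf. In the fit over all 24 libraries, 46 members passed the filter on low counts. With edgeR's quasi-likelihood test and a threshold of 0.05 on the adjusted p, 41 were higher and 2 lower at 96 hpf in THC animals, where 44.5% of all genes tested were called higher, 35.4% lower and 79.9% either way. The counts were 41 higher and 3 lower in CBD animals, against 42.4%, 35.6% and 78% of all genes, and 41 higher and 2 lower in DMSO animals, against 42.7%, 34.4% and 77.1%. Their median log2 fold change was 9.16 with THC, 10.70 with CBD and 9.90 with DMSO, where the median of all genes was 0.36, 0.25 and 0.32. Most members passed the filter only through their larval level, so these counts are a description. Summed over the 11 deep libraries of 10 hpf and the 12 of 96 hpf, the share of the library held by *crygm2d1* (ENSDARG00000087324) was 1877 times higher in larvae and that of *CRYBB1* (ENSDARG00000068507), a basic beta chain, 1638 times. *CRYAA* rested on 3 counts at 10 hpf, all from 2 libraries.

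The 5 tested members that were not called higher in every treatment were *crybg1a*, *crybg1b*, *crygs4*, *CRYBB2* and *CRYBB3*. *crybg1b* (ENSDARG00000006060) fell: its mean was 31.7 ± 4.24, 34.8 ± 4.16 and 34.4 ± 6.62 CPM in THC, CBD and DMSO larvae, against 75.6 ± 11.9, 56.8 ± 17.0 and 61.9 ± 19.4 CPM in the embryos (SD, n = 4 each). CPM was scaled within each stage, so these larval and embryo means are not on a common scale. The DMSO embryo mean includes the shallow library 4, which had 6 counts of this gene. In the fit over all 24 libraries the log2 fold change of *crybg1b* was -1.51 (SE 0.224) with THC, -0.95 (SE 0.221) with CBD and -1.13 (SE 0.228) with DMSO. The edgeR adjusted p was 2.18e-06, 0.000493 and 0.000118 in that order. *crybg1a* (ENSDARG00000031782) had log2 fold changes of 0.19, 0.73 and 0.23 and passed the test in none of the 3 treatments, though the CBD value passed at 1.12 without CBD library 1 and at 0.47 without CBD library 3 of 10 hpf, at 0.82 with the replicate number as a block and at 0.81 without the filter on low counts. *crygs4* (ENSDARG00000010701), a gamma S gene, fell by 1.72, 1.79 and 2.24 on the log2 scale, at 0 to 6 counts in the larval libraries and 2 to 14 in the deep embryo libraries. *CRYBB3* (ENSDARG00000041301), a basic beta chain, had -0.08, -1.27 and -0.56, of which the CBD value alone passed (edgeR adjusted p = 0.0350), and that call was lost without CBD library 1 or 3 of 10 hpf or CBD library 1, 2 or 3 of 96 hpf, at -1.23 to -0.70, and without the filter, at -1.18. *CRYBB2* (ENSDARG00000053512), another basic beta chain, had 1.16, 1.17 and 1.58 and did not pass, but without both DMSO library 4 and CBD library 3 of 10 hpf it passed with CBD at 1.95 and with DMSO at 1.65.

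The values of these 5 genes moved with the scaling between stages. With DESeq2's size factors in place of edgeR's trimmed means, the median of all genes moved to 1.22 with THC, 1.08 with CBD and 1.14 with DMSO. On that scaling *crybg1b* kept a negative sign (-0.64, -0.10 and -0.29) and passed in THC animals alone, *crybg1a* passed in all 3 treatments at 1.06, 1.58 and 1.05, and *crygs4* passed in none. *CRYBB3* turned to 0.77 with THC and 0.26 with DMSO and lost its call with CBD at -0.49, and *CRYBB2* passed in all 3 at 2.0, 1.98 and 2.38. *crygs4* also lost its call without THC library 1, without CBD library 3 and without DMSO library 1 of 10 hpf, at -1.27, -1.26 and -1.55.

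**Figure D2:**
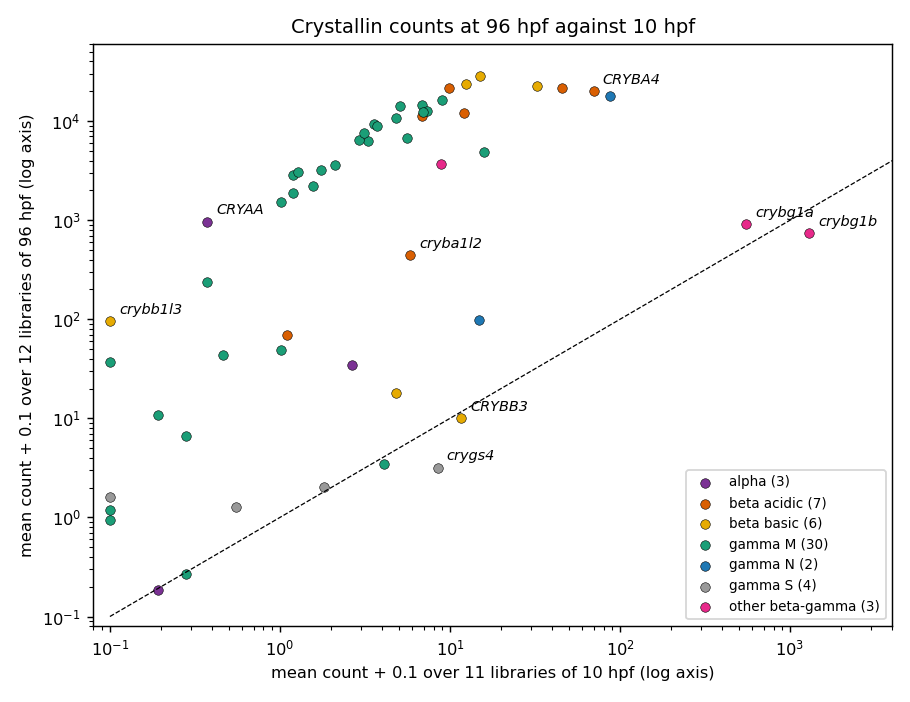
Mean count of each of the 55 crystallins over the 12 libraries of 96 hpf (vertical log axis) against its mean over the 11 deep libraries of 10 hpf (horizontal log axis), both with 0.1 added. Colours give the class with its number of genes, and the dashed line marks equal counts. Most beta, gamma M and gamma N genes lie far above the line, while *crybg1a*, *crybg1b*, *CRYBB3* and *crygs4* lie close to it or below.

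At 10 hpf most crystallin counts were those of the *crybg1* pair, which is no measure of lens. They gave 1494 to 2495 of the counts in the deep libraries other than CBD library 3, where they gave 426, and 9 in the shallow DMSO library 4. *crybg1a* had 35 counts in CBD library 3 against 382 to 872 in the other deep libraries.

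Of the remaining crystallins a few were present in every deep library of 10 hpf. *CRYGN* (ENSDARG00000030411), a gamma N crystallin, had 77, 52, 89 and 122 counts in THC embryos, 157, 114, 67 and 69 in CBD embryos and 99, 50 and 66 in the deep DMSO libraries, or 0.327% to 0.934% of its mean share in larvae. *CRYBA4* (ENSDARG00000024548), an acidic beta chain, had 45, 40, 91 and 123 counts with THC, 74, 67, 76 and 96 with CBD and 58, 46 and 51 with DMSO, or 0.225% to 0.595% of the larval share. By this raw share THC libraries 4 (0.595%) and 3 (0.586%) were the highest of the deep libraries, ahead of CBD library 3 (0.545%). By count CBD library 4 lay above THC library 3, and as scaled CPM CBD library 3 was the highest. *cryba1l1* (16 to 71 counts) and *crybb1l2* (18 to 54 counts) were likewise present in all 11 deep libraries, as were *crygmx* and *crybgx* at 5 or more counts each.

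The *crygm2d* block spanned a wider range of larval shares than *CRYGN* and *CRYBA4*. Its 18 genes summed to 10, 11, 211 and 234 counts in THC libraries 1 to 4, to 41, 12, 38 and 19 in CBD libraries and to 90, 2 and 29 in the deep DMSO libraries, where the shallow one had 13. As a percentage of the mean larval share this was 0.0083, 0.0095, 0.208 and 0.173 with THC, 0.0335, 0.0108, 0.0417 and 0.0153 with CBD and 0.0783, 0.0018 and 0.0270 with DMSO, and 1.735 in DMSO library 4. THC libraries 3 and 4 thus stood above every other deep library, and THC libraries 1 and 2 near the bottom. *CRYBB1* (5, 2, 48 and 48 counts with THC), *crybb1l1* (3, 5, 37 and 40) and *cryba1b* (3, 0, 34 and 38) showed the same pair of high THC libraries. Not every member did. By raw share of the deep libraries, *CRYBA2* (ENSDARG00000041925) was highest in CBD library 1 and *crygm2d21* in CBD library 3. *crygmx* was highest in THC library 3 but among the lowest in THC library 4.

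Genes of another larval tissue were high in the same pair of THC libraries. The 13 matched identifiers of a list of skeletal muscle genes summed to 0.0158%, 0.0194%, 0.235% and 0.166% of their mean larval share in THC libraries 1 to 4, close to the *crygm2d* values of the same libraries. They came to 0.314%, 0.0158%, 0.0575% and 0.0289% in CBD libraries and to 0.220%, 0.0188%, 0.0334% and 1.614% in DMSO libraries. In CBD library 1 and DMSO library 1 the muscle value was well above the *crygm2d* value, and in the shallow DMSO library 4 both were over 1%. The 29 retina genes came to 1.09% in CBD library 1 and 0.914% in DMSO library 1, against 0.218% to 0.435% in the other deep libraries. The sum of 18 listed lens genes that are not crystallins did not follow the block. It came to 8.33%, 11.9%, 14.8% and 3.35% in THC libraries 1 to 4, and THC library 4 was the lowest of the 4. In CBD libraries the sum came to 3.28%, 3.42%, 5.07% and 7.30%, and in the deep DMSO libraries to 3.22%, 11.4% and 10.2%. Only 5 of the 18 passed the filter at 10 hpf, and 2 were called lower at 96 hpf in each treatment. This sum therefore cannot show whether each of the 18 followed the block. The part of advanced embryos or of larval RNA in these values was not tested.

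**Figure D3:**
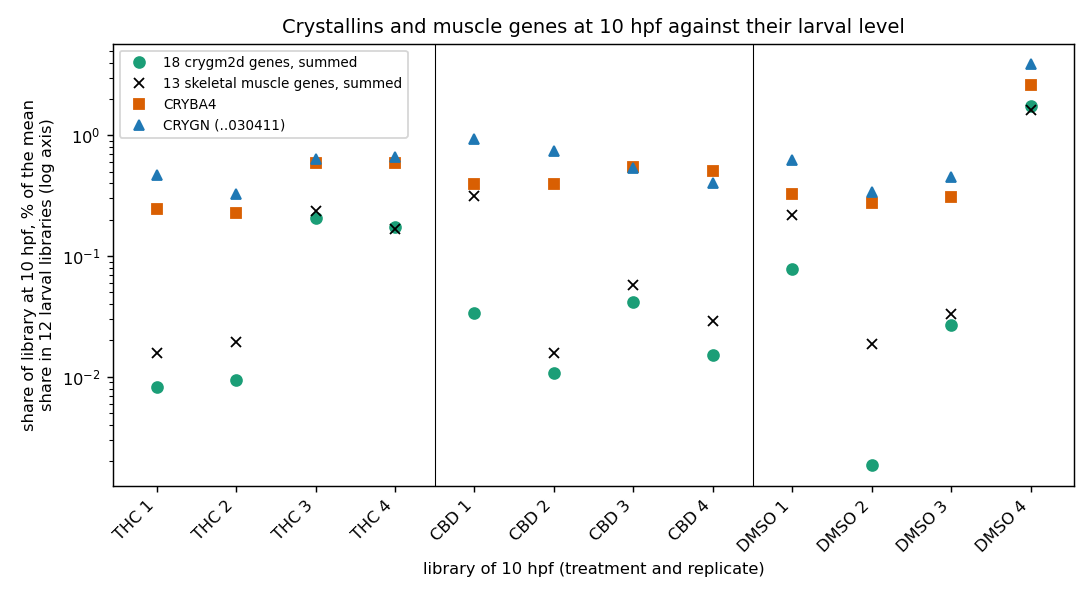
Share of each 10 hpf library held by the summed *crygm2d* genes, *CRYBA4*, one *CRYGN* gene and a summed list of 13 skeletal muscle genes, as a percentage of the mean share in the 12 larval libraries (vertical log axis). Libraries run along the horizontal axis by treatment and replicate, and DMSO 4 is the shallow library. The *crygm2d* points spread from 0.0018 to 0.208 over the deep libraries, while *CRYBA4* stays between 0.225 and 0.595.

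Among larvae the abundant crystallins went up and down together from library to library, also within a treatment. There were 29 beta and gamma crystallins with at least 800 counts in each larval library. Of these, 27, 8, 0 and 8 lay above their own median over the 12 libraries in THC libraries 1 to 4, 29, 3, 10 and 18 in CBD libraries and 22, 29, 1 and 19 in DMSO libraries. The median deviation of the 29 genes was -0.55 on the log2 scale in THC library 3 and 0.41 in DMSO library 2, the 2 extremes. *CRYAA* followed in part: it was lowest of the 12 libraries in THC library 3 (-0.26) and above its median in THC library 1 and CBD library 1 (0.17 each), but stood at 0.01 in DMSO library 2 and was highest in DMSO library 3 (0.41). It also stood at 0.38 in CBD library 2 and 0.13 in THC library 2, where 3 and 8 of the 29 genes were above their medians. In DMSO library 4, where 19 were, it stood at -0.20. DMSO library 3, where 1 of the 29 genes was above its median, had the highest summed alpha share of the 12 libraries, 0.00630%. That library also had the highest summed share of a list of 29 retina genes (0.820%), while DMSO library 2 had the lowest (0.379%), against 0.480% and 0.545% in DMSO libraries 1 and 4, 0.493% to 0.718% with THC and 0.613% to 0.758% with CBD. The part of eye tissue or RNA quality in these values was not tested. The spread of a crystallin within a treatment, as its coefficient of variation, had a median of 19.2% with THC, 14.4% with CBD and 18.6% with DMSO over the 45 genes tested at this stage.

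**Figure D4:**
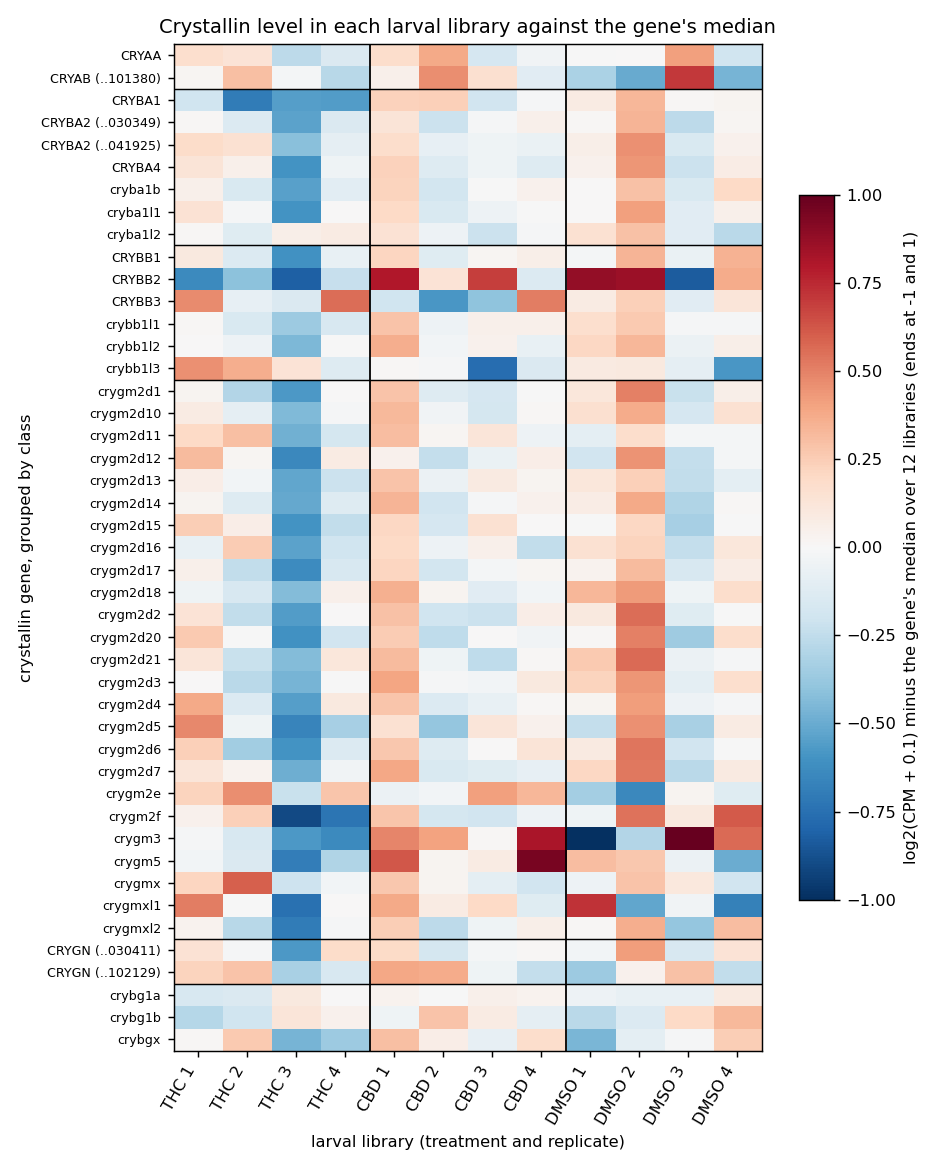
Level of each of the 45 crystallins tested at 96 hpf (rows, by class) in each larval library (columns, by treatment and replicate), as log2(CPM + 0.1) minus the gene's median over the 12 libraries. Red is above and blue below the median, and colours end at -1 and 1. THC library 3 is blue and DMSO library 2 red down most of the beta and gamma rows, and DMSO library 3 is red for both alpha genes.

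THC larvae had slightly lower values than DMSO larvae for most crystallins, and no member passed the test. Of the 45 tested, 0 were called by edgeR, where 11 of all 21409 genes tested were (0.0514%). The DESeq2 Wald test and limma's voom with quality weights also called 0. An unadjusted p under 0.05 was reached by 6 members in edgeR, against 802 genes (3.75% of all). It was reached by 8 members and 822 genes in DESeq2, and by 10 members and 929 genes in voom. The edgeR count of members was 2 without DMSO library 2 (715 of 21731 genes) and 3 without THC library 3 (793 of 21430). It was 12 without THC library 1 (887 of 21720) and 16 without DMSO library 3 (1488 of 21668). The log2 fold change was negative for 38 and positive for 7, with a median of -0.19, where 47.2% of all genes were negative and their median was 0.01. By class, all 7 acidic beta crystallins were negative (median -0.19), as were 4 of 6 basic beta (median -0.26) and 22 of 25 gamma M crystallins (median -0.24), among them all 18 *crygm2d* genes. These genes move together between libraries, so the 38 are not separate observations. Without THC library 3 the median was -0.08 with 32 of 45 negative, without DMSO library 2 it was -0.12, and without THC library 1, where 46 members were tested, it was -0.31.

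In the basic beta class the THC and DMSO libraries parted by raw share of the library, but not as scaled CPM. Its summed share was 0.317%, 0.286%, 0.260% and 0.326% in THC larvae, against 0.342%, 0.373%, 0.342% and 0.365% in DMSO larvae, and the groups did not overlap. As scaled CPM the same sum was 3401, 3048, 2377 and 3126 with THC. It was 3572, 4103, 3206 and 3680 with DMSO, and these ranges overlap. With CBD it was 4023, 3152, 3390 and 3342, which overlaps the THC range too. This class was singled out after the values of all classes were seen, and no share of all genes is given for raw shares. *CRYBB1* had 1350.0, 1147, 833 and 1199 CPM in THC larvae, against 1243, 1599, 1209 and 1608 CPM in DMSO larvae, which overlap. *crybb1l1* (ENSDARG00000007576) had 1059, 946, 819 and 943 CPM with THC, against 1185, 1259, 1047 and 1046 CPM with DMSO, with a log2 fold change of -0.27 (SE 0.122) and an edgeR unadjusted p of 0.0445. *crybb1l3* had a log2 fold change of 0.33 and so differed in sign from most of its class.

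The smallest p of a crystallin belonged to *CRYBA1*. It had 2.87, 1.99, 2.23 and 2.2 CPM in THC larvae, against 3.5, 4.18, 3.34 and 3.37 CPM in DMSO larvae, or an average of 2.32 ± 0.378 CPM over the THC libraries and 3.6 ± 0.396 CPM over the DMSO libraries (SD, n = 4 each). All 4 THC values lay below all 4 DMSO values. Groups that did not overlap, in either direction, were found for 1 of the 45 members and for 1.74% of all genes tested. The log2 fold change of *CRYBA1* was -0.63 (SE 0.181, 95% interval -1.02 to -0.25), with an unadjusted p of 0.00353 and an adjusted p of 0.780 in edgeR.

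*CRYBB2* had 0.401, 0.487, 0.342 and 0.565 CPM in THC larvae, against 1.33, 1.31, 0.338 and 0.907 CPM in DMSO larvae, and 7 to 35 counts in any larval library. The other DMSO libraries lay above the THC range and DMSO library 3 just below it. Its log2 fold change was -1.12 (SE 0.410), with an unadjusted p of 0.0158 and an adjusted p of 1.0 in edgeR. *crygm2d18* (ENSDARG00000073750), 1 of the gamma M block, had 129, 119, 98.4 and 138 CPM with THC, against 167, 179, 129 and 151 CPM with DMSO, a log2 fold change of -0.37 (SE 0.138) with overlapping groups.

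Between CBD larvae and DMSO larvae no crystallin passed the test, and the differences were small beside the spread between libraries. No member and no gene was called (0 of 21409 genes, 0%), by edgeR or by DESeq2 or voom. In edgeR 410 genes (1.92%) but 0 members had an unadjusted p under 0.05. The numbers were 409 genes and 0 members in DESeq2, and 1539 genes and 2 members in voom. In 0 members did the CBD and DMSO libraries fail to overlap, against 1.51% of all genes. For 32 members the log2 fold change was negative and for 13 positive, with a median of -0.06 (all genes 0.01). All 13 beta crystallins were negative, between -0.23 and -0.02. Without DMSO library 2 the median of the 45 was 0.01, with 30 positive. The members with the smallest p were low gamma M genes outside the *crygm2d* series. *crygm2e* (ENSDARG00000044875) had 1.55, 1.58, 2.17 and 2.05 CPM in CBD larvae, against 1.25, 0.993, 1.64 and 1.47 CPM in DMSO larvae, a log2 fold change of 0.46 (SE 0.238). *crygm2f* (ENSDARG00000078134) averaged 1.91 ± 0.321 CPM in CBD larvae and 2.46 ± 0.570 CPM in DMSO larvae (SD, n = 4 each), a log2 fold change of -0.36 (SE 0.281). The intervals of the 45 members leave room for differences in either direction: that of *CRYAA*, for one, was -0.30 to 0.36.

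CBD larvae had higher values than THC larvae for most crystallins, again with no call. The log2 fold change was above 0 for 39 of the 45 members and had a median of 0.14 (all genes -0.00, 49.2% of them above 0), and 0 members and 0 genes (0%) were called by edgeR. DESeq2 and voom called 0 members. An unadjusted p under 0.05 was reached by 3 members and 540 genes (2.52%) in edgeR. It was reached by 4 members and 563 genes in DESeq2, and by 5 members and 1179 genes in voom. The edgeR count of members was 2 without THC library 3 (723 of 21430 genes) and 7 without THC library 1 (555 of 21720). It was 5 without THC library 4 (514 of 21687) or DMSO library 3 (647 of 21668). The median was 0.05 with 28 positive without THC library 3, 0.24 without THC library 1 (46 members tested) and 0.08 without CBD library 1. The CBD and THC libraries of 4 members did not overlap (*CRYBA1*, *CRYBB2*, *crygm3* and *crygm5*), against 2.6% of all genes tested. In the larval libraries *crygm3* had only 3 to 25 counts and *CRYBB2* 7 to 35. As log2 deviations from the gene's median, the lowest CBD and highest THC value were -0.190 and -0.197 for *CRYBA1*. For *crygm3* they were 0.0146 and -0.0146. *crygm5* (ENSDARG00000041179) had 15.2, 10.0, 10.4 and 19.0 CPM in CBD larvae, against 9.63, 8.90, 6.06 and 7.97 CPM in THC larvae, and 12.2, 11.9, 9.43 and 6.96 CPM in DMSO larvae. Its log2 fold change between CBD and THC was 0.76 (SE 0.232, 95% interval 0.26 to 1.25), with an unadjusted p of 0.00570 and an adjusted p of 1.0 in edgeR. *CRYBA1* had 3.88, 3.91, 2.88 and 3.27 CPM in CBD larvae, a log2 fold change of 0.59 over THC larvae. The comparisons of the 3 treatments share libraries: the THC values enter 2 of them, and THC library 3 lowers the THC side of both.

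**Figure D5:**
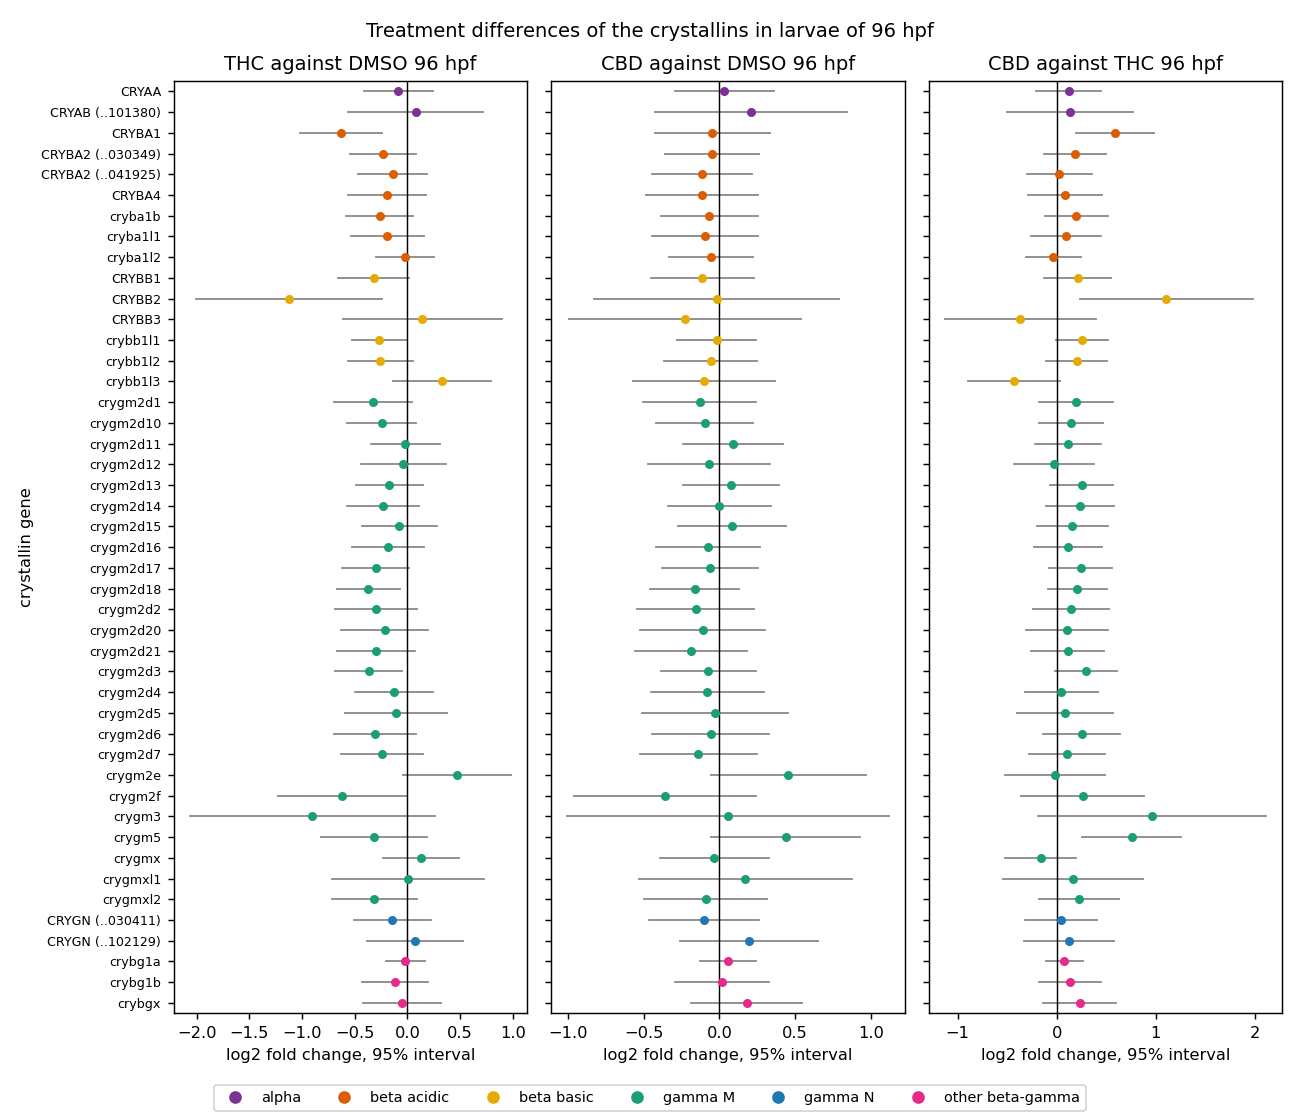
Log2 fold change with its 95% interval (horizontal axes) of the 45 crystallins tested at 96 hpf, in the 3 comparisons between treatments. Points are coloured by class and bars are intervals from edgeR's fit over 12 libraries. Most points lie left of 0 for THC against DMSO (38 of 45) and right of 0 for CBD against THC (39 of 45), and most intervals cross 0.

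At 10 hpf 17 members passed the filter, and no treatment difference was called. THC against DMSO gave 0 of 17595 genes and 0 members (0%), with 49 genes (0.278%) and 0 members at an unadjusted p under 0.05 in edgeR. The CBD comparisons gave 0 calls as well (0% each): 952 genes (5.41%) and 0 members were at an unadjusted p under 0.05 against DMSO, and 1601 genes (9.1%) and 0 members against THC. DESeq2 and voom called 0 members in each comparison. At an unadjusted p under 0.05 DESeq2 had 2 members and 762 of 17595 genes for CBD against DMSO. Voom had 1 member and 4704 genes for CBD against THC, and 0 members and 4365 genes for CBD against DMSO. The remaining pairs of test and comparison had 0 members at that level. The groups overlapped for all 17 members, while 1.32% of all genes did not overlap between THC and DMSO, 2.23% between CBD and DMSO and 4.52% between CBD and THC. The members with the smallest p followed the libraries described above: *crybb1l1* had 11, 2, 3 and 3 counts in CBD embryos, against 3, 5, 37 and 40 in THC embryos, a log2 fold change of -1.93 (SE 0.971). *cryba1b* had 6, 0, 3 and 1 counts with CBD, against 17, 2, 4 and 2 with DMSO, of which the last 2 came from the shallow library. The median log2 fold change of the 17 was 0.14 for THC against DMSO, 0.21 for CBD against DMSO and 0.07 for CBD against THC (all genes 0.02, 0.06 and 0.05). Leaving out 1 library turned the sign of each of these medians, for instance to -0.19 without THC library 3, to -0.54 without DMSO library 2 and to -0.59 without CBD library 1. The filter was run anew in each such fit, and these 3 medians are over 17, 22 and 20 members in that order. The part of the changed gene set in the turned signs was not tested.

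The interaction of treatment and stage, fitted over all 24 libraries, asked whether the treatment differences changed between stages. For THC 0 of 46 members and 0 of 22741 genes (0%) were called by edgeR, with 5 members and 539 genes (2.37%) at an unadjusted p under 0.05. For CBD 0 members and 0 genes (0%) were called, with 2 members and 1523 genes (6.7%) at that level. At 10 hpf alone only 17 members passed the filter, and most of the 46 entered this fit through their larval level. Of the 5 members for THC, 4 were *crygm2d* genes, and 1 of these 18 genes passed the filter at 10 hpf. The member counts are thus a description, and cannot be judged against the shares of all genes. The smallest p was that of *crygm2d6* for THC, with a difference of -3.37 (SE 1.18) on the log2 scale between the larval and the embryo effect and an adjusted p of 1.0. This gene had 18 counts over the deep libraries of 10 hpf together, 0 to 8 in each, so its embryo side rests on few reads.

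The other genes of the lens showed no call either. A list of lens genes that are not crystallins had 18 matched identifiers. It was written with lens connexins, beaded filament proteins, membrane proteins and lengsin, and also with others such as *grifin*, *tdrd7a*, *tdrd7b* and *caprin2*. Of the 18, 8 were positive and 10 negative for THC against DMSO at 96 hpf, with a median of -0.03. For CBD against DMSO 16 were positive (median 0.12) and for CBD against THC 15 (median 0.13). Of 14 tested genes for transcription factors of lens and eye, 13 were negative for THC against DMSO, with a median of -0.17, and 5 had an unadjusted p under 0.05 in edgeR, against 3.75% of all genes. *HSF4*, a heat shock factor that drives lens genes in mammals, had the smallest p of them, with 3.45 ± 0.902 CPM in THC larvae and 5.4 ± 1.22 CPM in DMSO larvae (SD, n = 4 each), a log2 fold change of -0.65 (SE 0.206) and an edgeR adjusted p of 0.930. The 9 small heat shock proteins related to the alpha crystallins had a median of 0.08, the 29 retina genes 0.02, the 13 muscle genes -0.11, the 10 epidermis genes -0.16 and the 7 tested markers of the 10 hpf stage -0.02 in the same comparison.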

How the data were processed

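Per the labels' protocols, total RNA was taken with RNeasy kits and DNase, and TruSeq libraries were read in pairs. Values are raw counts per gene as deposited by the authors, 1 file per library. Per the submitters' processing notes, STAR, HTSeq, edgeR and the build GRCz11 were used. The names of the deposited files say that HTSeq counted in its union mode on the reverse strand. No versions of these are given in the sources used here. Every row names a gene. Symbols came from a name table covering 27000 of 35117 identifiers.

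Each stage was fitted over its 12 libraries in edgeR 4.0.16 (R 4.3.3): filterByExpr (minimum count 10, minimum total 15), trimmed-mean scaling, quasi-likelihood F test, Benjamini-Hochberg adjustment over all genes, threshold 0.05. Stage and interaction contrasts used all 24 libraries. Within stages CPM is scaled likewise. Standard errors derive from the fold change and F value, and intervals cover 95%. Library totals were 14879976 to 29641377, but 125926 for DMSO library 4 of 10 hpf. No replicate pair agreed within sampling noise (36 pairs, lowest chi-square per degree of freedom 2.53, genes with at least 20 summed counts). The fits were tested on simulated counts.

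The members, lists and tests were chosen with earlier results of these data known. Named by rule were all alpha crystallins, the 2 highest of each class at 96 hpf, those of at least 1 CPM at 10 hpf (at most 8) and the 3 smallest p of each comparison. Not all of these are printed with their value in every library or comparison. The other genes named (*CRYBB3*, *CRYBA2*, *crygm2d6*, *crygm3*, *crybb1l3*, *crybb1l2*, *crygmx* and members of the gene run) were chosen after their values were seen. Lists were lens structural genes, lens and eye transcription factors, small heat shock proteins, retina, skeletal muscle, epidermis and 10 hpf stage markers. Alternatives were DESeq2 1.42.0 (size factors, Wald test), limma 3.58.1 voom with quality weights, scaling without crystallins, no filter, 8 libraries, a replicate block, omission of both DMSO library 4 and CBD library 3 at 10 hpf, and leaving out each library.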

Additional observations from a re-analysis of the deposited data

Results flagged for a closer look

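Among 141 combinations of a named crystallin or a class sum with a group of 4 libraries, 17 had 1 library set apart by a large gap. For separate combinations, not chosen by level, chance gives about 1 in 20, or 7.05. Here some members were named for their mean CPM at 10 hpf, which the shallow library enters, and the sums contain named members. The 17 can therefore not be judged against 7.05. Most of the 17, 13 of them, are the shallow DMSO library 4 of 10 hpf, whose CPM of 7.14 is 1 read. It was high for *cryba1b* and *crygm2d13* (14.3 CPM each), *CRYBB1*, *CRYBA4* and *crygmxl2* (21.4 CPM each), *crybb1l1* (7.14 CPM), *crygm2d1* and *CRYGN* ENSDARG00000030411 (28.6 CPM each), and for the sums of all crystallins (299.9 CPM), acidic beta (57.1 CPM), basic beta (35.7 CPM), gamma M (114.2 CPM) and gamma N crystallins (28.6 CPM). CBD library 3 of 10 hpf was high for *CRYGN* ENSDARG00000102129 (4.54 CPM, 41 counts) and for the sum of acidic beta crystallins (15.8 CPM). At 96 hpf DMSO library 3 was high for *CRYAB* ENSDARG00000101380 (2.56 CPM, 53 counts), and DMSO library 4 for *crybg1a* (44.3 CPM).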

How the results depend on the processing

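The count of crystallins called stayed within 1.5 times its value under every alternative run, 0 in each treatment and interaction comparison, and the summed level of crystallins moved by less than 1 SD when they were left out of the scaling. Among the log2 fold changes of single named members, 7 of the alternative values had the other sign: *crygm2d13* between THC and DMSO at 10 hpf with the DESeq2 Wald test (-0.24, against 1.06), *CRYBB3* between stages with DESeq2 size factors (0.77 with THC and 0.26 with DMSO), and *CRYBB3* between stages in THC animals in 4 of the 8 fits that left out 1 library, which ranged from -0.39 to 0.26 against -0.08. Over all tested members more signs turned: without DMSO library 2, 30 rather than 13 of 45 were positive between CBD and DMSO at 96 hpf. The cause was not tested. Same-numbered libraries did not deviate together in every pair (correlations of -0.55 to 0.65), nor did every library correlate best with its own number, so the number was taken as a name only. With it as a replicate block 0 crystallins were called in any treatment comparison. At 96 hpf 11 rather than 6 had an unadjusted p under 0.05 in edgeR between THC and DMSO, and 7 rather than 3 between CBD and THC. Among the 21409 genes tested these numbers were 984 rather than 802 and 686 rather than 540. Over all genes, the calls between THC and DMSO at 96 hpf were 11, but 18 without the filter, 1 with the block, 1 with 8 libraries, 54 with DESeq2 and 1 to 31 without 1 library. Between CBD and THC at 96 hpf they were 0, but 14 with DESeq2, 3 with voom, 3 with 8 libraries, 1 without the filter and 1 without THC library 3. At 10 hpf voom called 428 genes between CBD and DMSO and 719 between CBD and THC, none of them crystallins, and 4 and 14 were called without CBD library 1. Depth limits the 10 hpf values, where many members rest on fewer than 10 counts.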
